A study of Homo sapiens with 6 samples.

Results

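The E2F factors and the retinoblastoma (pocket) proteins were followed as 10 genes: E2F1, E2F2 and E2F3 (activators), E2F4 and E2F5 (canonical repressors), E2F6 (a repressor that acts without pocket proteins), E2F7 and E2F8 (atypical repressors), and the pocket protein genes RB1 and RBL1. They were taken by name, though with earlier results of these data known, from a table of 67140 Ensembl identifiers, and all 10 passed the filter on low counts that 19254 identifiers passed. RNA was sequenced from KYSE150, an established esophageal squamous cell carcinoma (ESCC) line grown with fetal bovine serum, in 3 samples with a control short hairpin (shCtrl) and 3 with a short hairpin against the lncRNA AC007128.1 (shAC007128.1). The study made stable lines by lentivirus and puromycin, with 1 hairpin against AC007128.1, so the hairpin and the history of the line that carries it cannot be told apart. The treatment field of all 6 samples names shAC007128.1, so groups were taken from the sample descriptions. Nothing in the sources used here says whether the 3 samples of a group were separate cultures, so p-values measure the spread between these samples only.

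E2F factors bind DNA with a DP partner and set the level of genes that cells need for entering S phase. Unphosphorylated pocket proteins hold activator E2Fs back and, with E2F4 or E2F5, repress the same genes. Cyclin-dependent kinases phosphorylate the pocket proteins and release the activators. E2F1, E2F2, E2F7, E2F8 and RBL1 are themselves known E2F targets, and the atypical factors, which bind DNA without a DP partner, feed back on the activators. Loss of pocket protein control is a hallmark of many carcinomas.

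Total counts per sample were 65140326 to 78610457 in shCtrl and 55764405 to 60158244 in shAC007128.1, so the depths of the groups do not overlap. With every library thinned to the smallest total, 5 members were again higher and 2 lower, the same numbers as without thinning. The hairpin's target AC007128.1 had 0.943, 0.41 and 0.781 CPM (counts scaled to a common library total) in shCtrl and 0.32, 0.674 and 0.258 in shAC007128.1. The groups overlapped, and a difference of -0.77 on the log2 scale (SE 0.51) did not pass the test (adjusted p = 0.271, edgeR), so the count table does not by itself check the labels. All 7 squamous epithelial markers held counts in every sample, with a summed level of 1139 to 1186 CPM in shCtrl and 1863 to 2251 CPM in shAC007128.1. Members of that list differed in direction. KRT5, KRT14, KRT6A, SOX2 and EPCAM were higher past the test, with log2 fold changes of 0.87, 2.28, 2.46, 3.40 and 0.92. The SOX2 change started from a low level. SOX2 had 0.328, 0.385 and 0.59 CPM in shCtrl, below 1 CPM, and 4.73, 5.17 and 3.89 CPM in shAC007128.1. DSG3 was lower at -1.09 (adjusted p = 0.000122 by edgeR), and TP63 at -0.27 did not pass. Of the markers of other cell types, the fibroblast list (5 genes) summed to 14.8 to 15.7 CPM in shCtrl and 20.8 to 23.6 in shAC007128.1, the leukocyte list (5 genes) to 59.3 to 68.3 and 14.7 to 24, and the endothelial list (3 genes) to 2.12 to 3.11 and 0.302 to 2.02. COL1A2, COL3A1, DCN, PTPRC, CD3E, CD14, PECAM1 and CDH5 stayed below 1 CPM in all samples. Most of the leukocyte sum was CD68, which epithelial cells also express and which shares most of its exonic bases with another annotated gene.

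Promoters of the members were read from RefSeq (GRCh38.p14), from 250 bases before to 50 bases after each annotated start. Entries were found for 8 of the 10 members. E2F5 and E2F8 have none in the table used, and the RB1 entry lies inside the gene and not at its first exon. The promoters of E2F1, E2F2 and RBL1 are shown because these genes were higher in shAC007128.1 cells, that of E2F3 because it carries the same motif in a gene that did not pass the test, and that of E2F7 because it was lower. Capitals mark matches to the E2F consensus, which is TTTCCCGC, TTTCGCGC, TTTGCCGC or TTTGGCGC on either strand.
E2F1, chr20:33686336-33686635, minus strand: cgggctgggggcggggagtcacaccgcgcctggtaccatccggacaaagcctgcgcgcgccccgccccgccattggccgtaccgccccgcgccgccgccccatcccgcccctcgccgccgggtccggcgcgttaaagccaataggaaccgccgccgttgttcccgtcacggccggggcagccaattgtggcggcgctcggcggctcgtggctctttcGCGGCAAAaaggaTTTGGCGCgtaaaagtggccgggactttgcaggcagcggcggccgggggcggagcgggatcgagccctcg
E2F2, chr1:23531184-23531483, minus strand: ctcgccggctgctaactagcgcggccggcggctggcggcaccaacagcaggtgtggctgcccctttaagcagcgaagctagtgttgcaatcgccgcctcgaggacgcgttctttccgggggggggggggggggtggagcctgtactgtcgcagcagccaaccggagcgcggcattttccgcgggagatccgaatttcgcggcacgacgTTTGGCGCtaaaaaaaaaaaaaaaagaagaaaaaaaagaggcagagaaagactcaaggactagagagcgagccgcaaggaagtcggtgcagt
RBL1, chr20:37095948-37096247, minus strand: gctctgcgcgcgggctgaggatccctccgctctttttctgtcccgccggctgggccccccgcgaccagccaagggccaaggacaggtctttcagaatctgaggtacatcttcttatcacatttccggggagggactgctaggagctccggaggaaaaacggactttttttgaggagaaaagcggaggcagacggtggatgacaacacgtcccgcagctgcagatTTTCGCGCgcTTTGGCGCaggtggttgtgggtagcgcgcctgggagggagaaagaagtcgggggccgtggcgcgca
E2F3, upstream start, chr6:20401629-20401928, plus strand: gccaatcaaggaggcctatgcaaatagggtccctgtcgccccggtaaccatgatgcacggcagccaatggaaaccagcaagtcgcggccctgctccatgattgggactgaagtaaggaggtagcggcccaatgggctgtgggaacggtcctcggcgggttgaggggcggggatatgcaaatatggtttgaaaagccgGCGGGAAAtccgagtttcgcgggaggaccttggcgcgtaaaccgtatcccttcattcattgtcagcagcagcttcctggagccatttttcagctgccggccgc
E2F7, chr12:77065520-77065819, minus strand: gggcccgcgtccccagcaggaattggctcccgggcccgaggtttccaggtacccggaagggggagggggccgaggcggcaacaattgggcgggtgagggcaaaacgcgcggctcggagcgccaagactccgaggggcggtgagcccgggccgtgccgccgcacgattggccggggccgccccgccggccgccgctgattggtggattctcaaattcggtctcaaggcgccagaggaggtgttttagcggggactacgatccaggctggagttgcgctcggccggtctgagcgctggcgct

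E2F1 held 2 consensus matches, TTTGCCGC on the opposite strand starting 33 bases before the transcription start and TTTGGCGC 20 bases before it. RBL1 held TTTCGCGC at 26 and TTTGGCGC at 16 bases before its start. E2F2 held TTTGGCGC at 42 bases before its start. In E2F3 the upstream of its 2 annotated starts held TTTCCCGC on the opposite strand at 53 bases, and the other start held no match. The consensus was thus found in 4 of the 8 members with an entry, against 3.31% of the 35116 promoters in the table and 6.44% of the 10829 protein-coding genes tested with an entry. The shorter core TTCCCGC, which the first consensus form contains, was found in E2F3 at the same place and in E2F6, against 6.55% of all promoters. The cell cycle homology region (CHR, TTTGAA) was found only in E2F3 among these entries, against 15.2% of all promoters. The CCAAT box (CCAAT) was found 3 times in E2F1, 4 times in E2F3 and 4 times in E2F7, against 34.6% of all promoters with at least 1. E2F4 held none of these letters in its window.

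**Figure D1:**
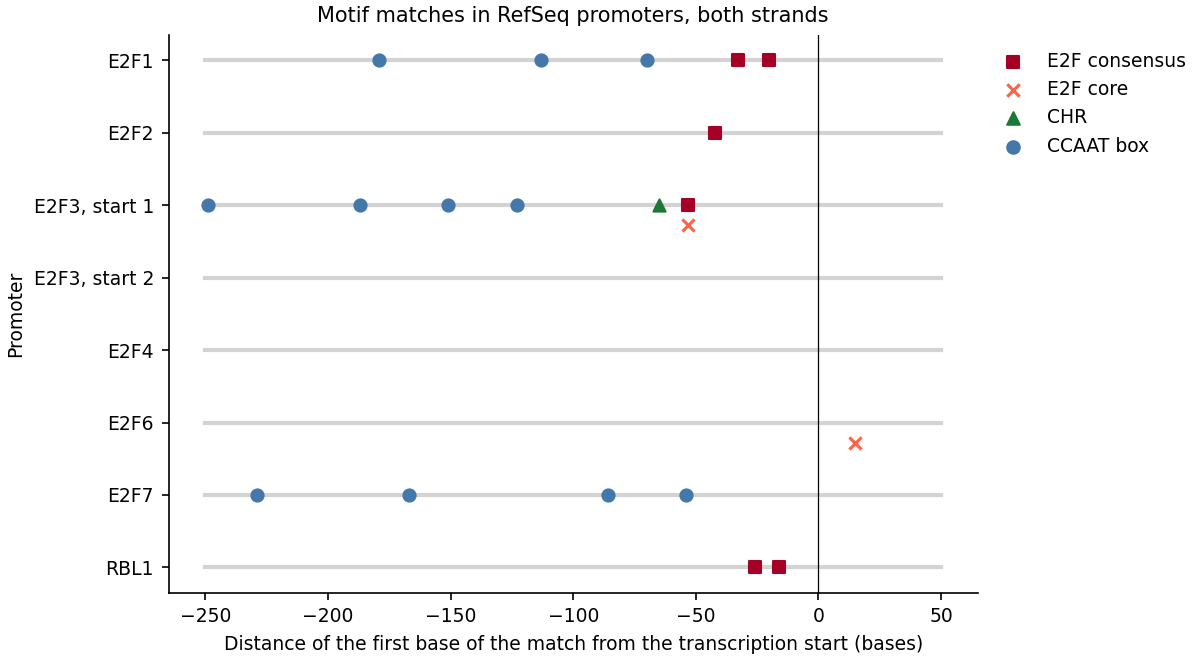
Matches to the E2F consensus (squares), the E2F core (crosses), the CHR (triangle) and the CCAAT box (circles) in the RefSeq promoters of 7 members, by distance in bases from the transcription start. The consensus matches of E2F1, E2F2, RBL1 and the first start of E2F3 all lie between 53 and 16 bases before the start.

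Of the 10 members, 5 were higher in shAC007128.1 cells (E2F1, E2F2, E2F8, RB1 and RBL1) and 2 were lower (E2F4 and E2F7) at an adjusted p of at most 0.05 from edgeR's quasi-likelihood test. Over all 19254 genes tested, 21% were higher and 19.8% lower by this rule. The members and the genes of the lists below are protein-coding. Of the 10829 tested protein-coding genes with a promoter entry, 28.1% were higher and 20.9% lower. With a change of at least 2-fold also required, E2F1, E2F2, E2F8 and RB1 were higher, against 5.57% of all genes. By that rule 0 members were lower with edgeR, against 10.1% of all genes, while DESeq2 called 1, E2F5. At an unadjusted p under 0.05, whatever the size of the change, 3 members were lower. For DESeq2 and for the unadjusted p no share of all genes was taken, so these counts have nothing to be set against. The sample values of shCtrl and shAC007128.1 did not overlap in 8 members, against 55.2% of all genes tested: 5 were higher in every shAC007128.1 sample (27% of all genes) and 3 lower in every one (28.2% of all genes). In bulk RNA, fewer cells of a kind and less RNA per cell cannot be told apart, and this holds for every level given here. The median log2 fold change of the 10 members was 0.19 and that of all genes tested -0.02. Levels below are CPM scaled by edgeR's TMM factors, given for replicates 1, 2 and 3 in turn, and 3 counts correspond to 0.0373 to 0.0546 CPM.

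**Figure D2:**
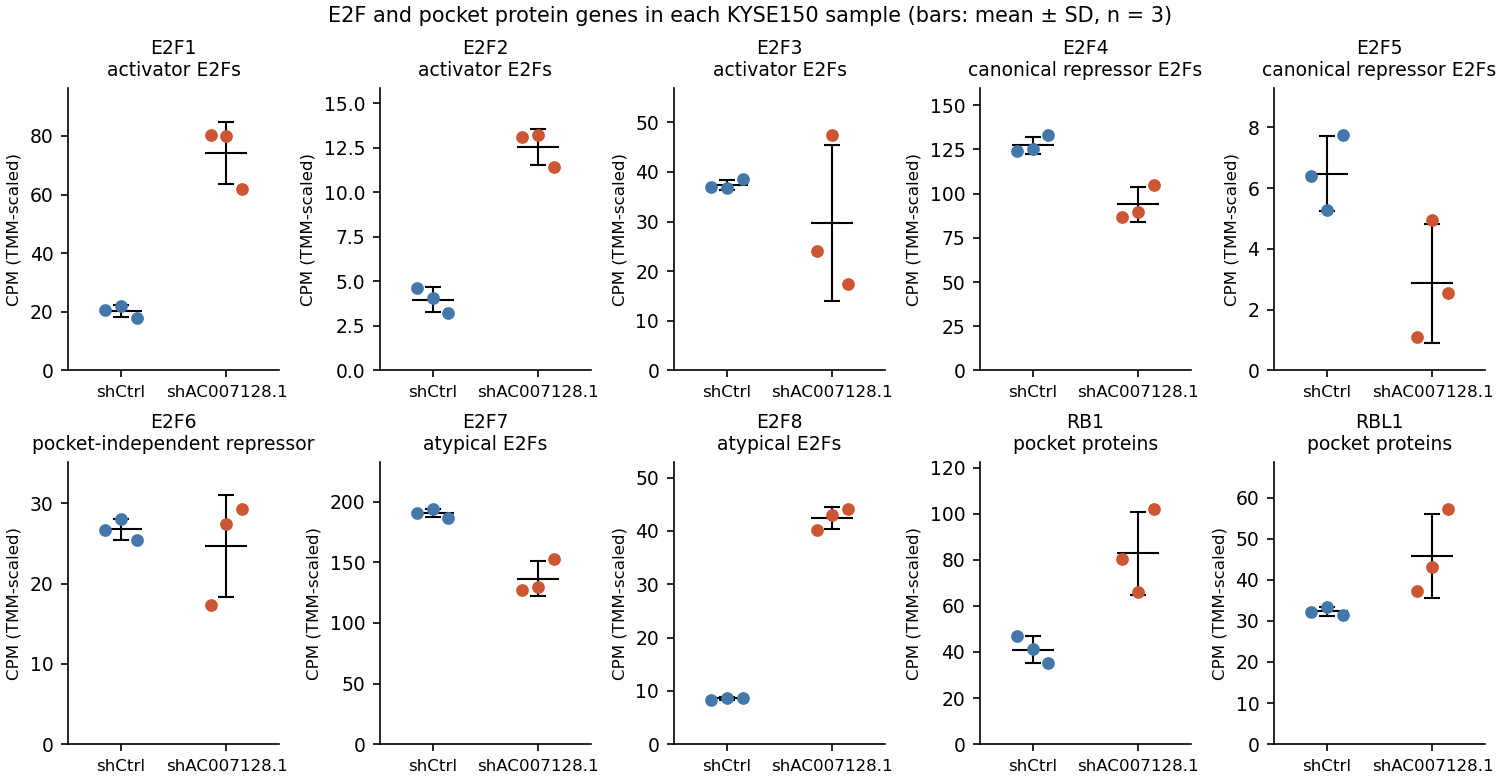
TMM-scaled CPM of the 10 genes in each sample, with shCtrl at left and shAC007128.1 at right in each panel (points: samples; black bars: mean and SD, n = 3; each axis starts at 0). E2F1, E2F2, E2F8, RB1 and RBL1 lie higher in every shAC007128.1 sample, E2F4, E2F5 and E2F7 lie lower in every one, and E2F3 and E2F6 overlap.

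Among the activators, E2F1 and E2F2 rose and E2F3 did not pass the test. E2F1 (ENSG00000101412, chr20:33675477-33686385, minus strand), an activator that can also drive apoptosis genes, had 20.6, 22 and 17.9 CPM in shCtrl and 80.2, 80.1 and 61.8 CPM in shAC007128.1. The lowest shAC007128.1 sample, replicate 3, was still far above the highest shCtrl sample. The means were 20.2 ± 2.07 and 74.0 ± 10.6 CPM (SD, n = 3), a 3.67-fold rise with a log2 fold change of 1.87 (SE, the standard error, 0.14; adjusted p = 8.61e-05 by edgeR).

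E2F2 (ENSG00000007968, chr1:23506438-23531233, minus strand), an activator of the same kind, was the member with the lowest level in shCtrl. It had 4.63, 4.04 and 3.23 CPM in shCtrl and 13.1, 13.2 and 11.4 CPM in shAC007128.1, with no overlap. Its log2 fold change was 1.67 (SE 0.17; adjusted p = 0.000369 by edgeR), or 3.17-fold.

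E2F3 (ENSG00000112242, chr6:20401879-20493714, plus strand) gives rise to a long and a short activator isoform from separate starts, which a count per gene does not separate. The shCtrl samples were tight at 36.9, 36.7 and 38.6 CPM, while the shAC007128.1 samples spread over 24.1, 47.4 and 17.5 CPM. Replicates 1 and 3 lay below all shCtrl samples and replicate 2 above them. The log2 fold change was -0.34 with a 95% interval of -1.10 to 0.43 (edgeR adjusted p = 0.456). Without shAC007128.1 replicate 2 it was -0.84 (edgeR adjusted p = 0.00887), so that library decided the call.

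Of the canonical repressors, which recruit pocket proteins to promoters in resting and early G1 cells, E2F4 fell. E2F4 (ENSG00000205250, chr16:67192155-67198918, plus strand) had 124, 125 and 133 CPM in shCtrl and 87.0, 89.6 and 105 CPM in shAC007128.1. The groups did not overlap, but the change was small beside those of E2F1 and E2F8. The level fell 1.36-fold, a log2 fold change of -0.44 (SE 0.09; adjusted p = 0.0076 by edgeR).

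E2F5 (ENSG00000133740, chr8:85177154-85217158, plus strand) had 6.41, 5.27 and 7.74 CPM in shCtrl and 1.09, 4.95 and 2.56 CPM in shAC007128.1. The shAC007128.1 values differed several-fold among themselves, and replicate 2 came close to the lowest shCtrl sample. The log2 fold change of -1.17 had a 95% interval of -2.31 to -0.04 and did not pass the test over all genes (edgeR adjusted p = 0.0925). It passed with DESeq2 (adjusted p = 0.0118) and without shAC007128.1 replicate 2 (-1.82, edgeR adjusted p = 0.0182). E2F5 shares 997 exonic bases (16.6%) with RBIS on the opposite strand, which had 1524 to 2532 counts per sample. The study's methods describe no library step that keeps strand, so the E2F5 count is uncertain.

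E2F6 (ENSG00000169016, chr2:11444375-11466177, minus strand), which represses through a Polycomb complex and not through pocket proteins, had 26.7, 28.1 and 25.5 CPM in shCtrl and 17.4, 27.4 and 29.3 CPM in shAC007128.1. Replicate 1 alone lay below the control range. The log2 fold change was -0.12 (95% interval -0.56 to 0.33, edgeR adjusted p = 0.663), and a change was not detected. Its 4 processed pseudogenes held 0 to 4 counts per sample.

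The atypical factors E2F7 and E2F8 moved in opposite directions. E2F8 (ENSG00000129173, chr11:19224063-19241620, minus strand) showed the largest change among the 10 members. It had 8.26, 8.74 and 8.74 CPM in shCtrl and 40.2, 43.0 and 44.1 CPM in shAC007128.1. All samples stayed close to their group mean, at 8.58 ± 0.28 and 42.4 ± 2.03 CPM (SD, n = 3). The rise was 4.94-fold, with a log2 fold change of 2.31 (SE 0.09; adjusted p = 1.6e-05 by edgeR).

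E2F7 (ENSG00000165891, chr12:77021248-77065569, minus strand), the closest relative of E2F8, was the member with the highest CPM in every sample. It had 191, 194 and 187 CPM in shCtrl and 127, 130 and 153 CPM in shAC007128.1, and the groups did not overlap. It fell 1.40-fold, a log2 fold change of -0.48 (SE 0.09; adjusted p = 0.00394 by edgeR). Per kb of exon, E2F8 stood at 0.0657, 0.0684 and 0.0711 of the E2F7 level in shCtrl and at 0.482, 0.503 and 0.44 of it in shAC007128.1. E2F7 thus stayed the more abundant of the pair in all samples.

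**Figure D3:**
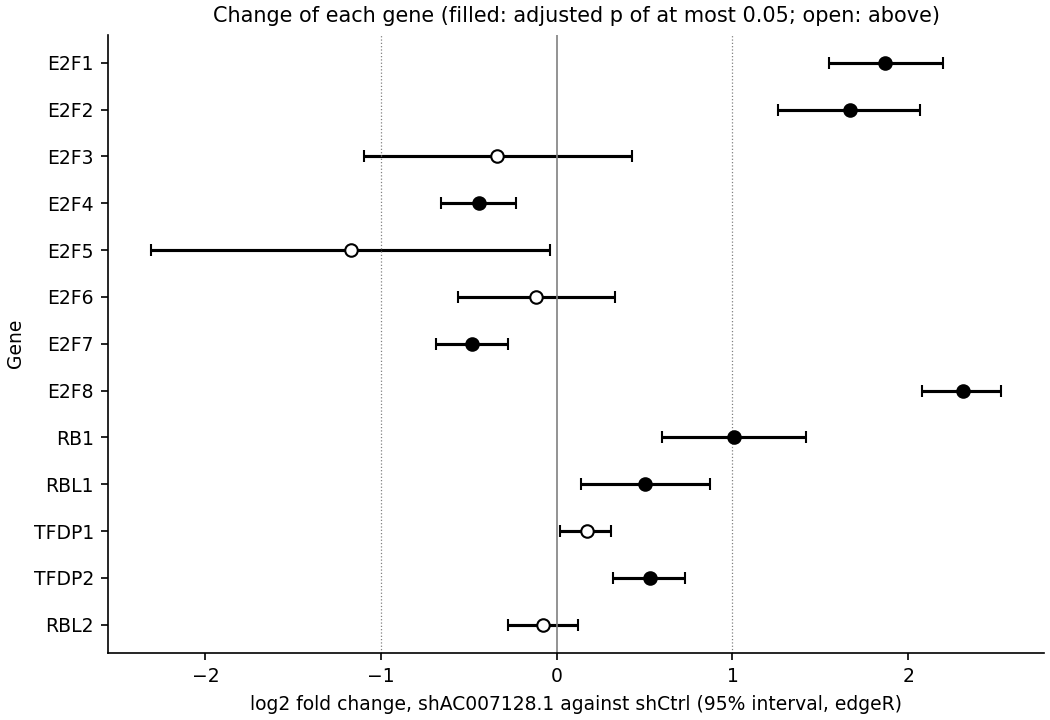
Log2 fold change of the 10 members and of the partners TFDP1, TFDP2 and RBL2 between shAC007128.1 and shCtrl, with 95% intervals from the edgeR fit (filled: adjusted p of at most 0.05; dotted lines: 2-fold). E2F8, E2F1 and E2F2 lie furthest to the right, from 2.31 to 1.67, while E2F4 and E2F7 lie at -0.44 and -0.48 with short intervals and E2F3 and E2F5 have wide ones.

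The pocket proteins RB1 and RBL1 rose together with E2F1, E2F2 and E2F8, by smaller amounts. RB1 (ENSG00000139687, chr13:48303744-48599436, plus strand), the retinoblastoma protein that binds activator E2Fs, had 46.8, 41.1 and 35.2 CPM in shCtrl and 80.2, 66.2 and 102 CPM in shAC007128.1. Each group spread widely without reaching the other. The log2 fold change was 1.01 (SE 0.17; adjusted p = 0.00342 by edgeR), just past 2-fold. It lost the 2-fold call in 6 of 12 alternatives, with DESeq2 (0.99), counts divided by 4 (0.99), no filter on low counts (0.97), the replicate block (just under 1), without shAC007128.1 replicate 3 (0.83) and without shCtrl replicate 3 (0.91), but stayed past the test in all 12.

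RBL1 (ENSG00000080839, chr20:36996349-37095997, minus strand) encodes p107, the pocket protein that accumulates in cycling cells. It had 32.1, 33.4 and 31.4 CPM in shCtrl and 37.2, 43.0 and 57.2 CPM in shAC007128.1, where replicate 3 stood apart from the other two. Its log2 fold change of 0.50 (SE 0.16; adjusted p = 0.0369 by edgeR) was near the threshold. It did not pass with the replicate number as a block (0.48, edgeR adjusted p = 0.0585), with no filter on low counts (0.46, adjusted p = 0.0815), without shAC007128.1 replicate 2 (0.55, adjusted p = 0.0661), or without shCtrl replicate 1, 2 or 3 (0.50, 0.53 and 0.48, the highest adjusted p = 0.111). An lncRNA that shares 213 of its exonic bases held 0 to 25 counts per sample.

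To compare levels between genes, CPM was divided by the exonic length of each gene in kb. In shCtrl cells E2F4 stood highest at 35.5 ± 1.35 CPM per kb (SD, n = 3), followed by E2F7 at 30.3 ± 0.588, and the samples of these neighbours did not overlap. A second tier held E2F1 (7.5 ± 0.77), E2F3 (7.21 ± 0.208), E2F6 (6.58 ± 0.323), RB1 (6.38 ± 0.905) and RBL1 (5.42 ± 0.174). In that tier E2F1 overlapped E2F3, E2F6 and RB1, while RB1 also overlapped E2F3, E2F6 and RBL1. E2F8 (2.08 ± 0.0677), E2F5 (1.08 ± 0.206) and E2F2 (0.726 ± 0.129) were lowest, with no overlap between neighbours. The order inside the second tier depended on the length used. Per kb of the longest transcript RB1 came first in it at 8.61 ± 1.22, followed by E2F6, E2F1, E2F3 and RBL1.

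In shAC007128.1 cells the order at the top also depended on the length used. Per kb of all exonic bases, E2F1 reached 27.5 ± 3.94 CPM per kb, E2F4 26.1 ± 2.74 and E2F7 21.7 ± 2.22, and each overlapped its neighbour. Per kb of the longest transcript, E2F4 stayed highest as in shCtrl, at 33.3, 34.3 and 40.2 against 29.8, 29.8 and 23 for E2F1, without overlap. Per kb of all exonic bases, RB1 followed at 12.9 ± 2.77 and overlapped E2F8 at 10.3 ± 0.491. RBL1 (7.69 ± 1.73), E2F6 (6.07 ± 1.56) and E2F3 (5.71 ± 3.02) overlapped in turn, and E2F2 (2.30 ± 0.182) and E2F5 (0.478 ± 0.325) stayed lowest without overlap.

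The 8 E2F genes together amounted to 90.2, 91.7 and 91.1 CPM per kb in shCtrl and 95.4, 105 and 100 CPM per kb in shAC007128.1. The means were 91.0 ± 0.727 and 100 ± 4.73 (SD, n = 3). With the longest transcript the sums overlapped, at 108, 110 and 110 in shCtrl and 109, 119 and 116 in shAC007128.1. Per kb of all exonic bases, the activators took 17.3, 17.4 and 16.1% of the sum in shCtrl and 38.6, 39.4 and 28.4% in shAC007128.1. The canonical repressors took 39.5, 39.0 and 42.1% in shCtrl and 25.6, 24.5 and 29.6% in shAC007128.1. The groups were apart for both classes, and E2F1 alone went from 8.24 ± 0.834% to 27.5 ± 4.23% (SD, n = 3). The atypical factors took 34.9 to 36.0% in shCtrl and 29.6 to 34.8% in shAC007128.1, since E2F8 rose from 2.28 ± 0.0581% to 10.2 ± 0.371% while E2F7 went from 33.3 ± 0.628% to 21.7 ± 2.29%. With the longest transcript the atypical shares overlapped, at 31.9 to 33.1% in shCtrl and 28.8 to 33.1% in shAC007128.1. Per kb of all exonic bases, E2F6 took 6.87 to 7.53% in shCtrl and 4.49 to 7.18% in shAC007128.1, with overlap. These class shares are descriptions and were not tested, as they follow from the members' own values.

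**Figure D4:**
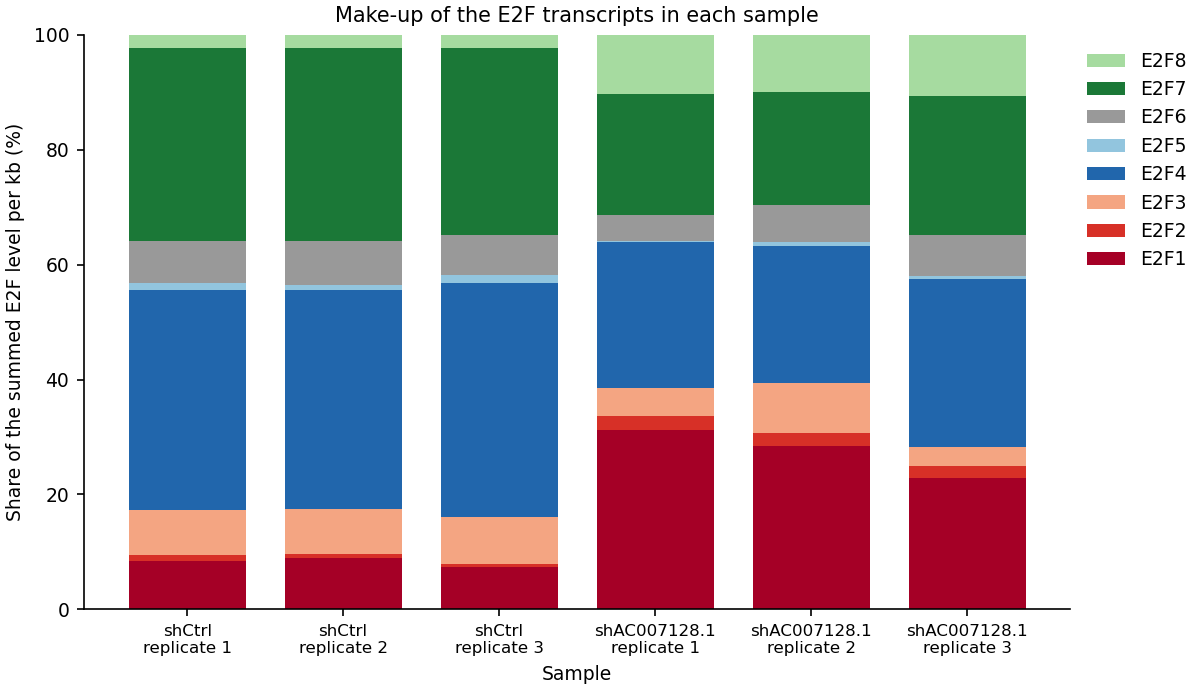
Share of each E2F gene in the summed E2F level per kb of exon, in percent, in each of the 6 samples (stacked bars from 0 to 100%). E2F1 grows from 7.31 to 8.92% in shCtrl to 22.9 to 31.2% in shAC007128.1, E2F8 from 2.21 to 2.32% to 9.91 to 10.6%, and E2F4 and E2F7 shrink.

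The ratio of E2F1 to E2F4 per kb was 0.222, 0.234 and 0.18 in shCtrl and 1.23, 1.2 and 0.785 in shAC007128.1. With the longest transcript it was 0.161, 0.17 and 0.131 in shCtrl and 0.896, 0.869 and 0.571 in shAC007128.1, below 1 in all samples and again without overlap of the groups. The ratio of E2F1 to RB1 per kb was 1.05, 1.28 and 1.22 in shCtrl and 2.39, 2.89 and 1.45 in shAC007128.1, and with the longest transcript 0.781, 0.948 and 0.903 in shCtrl and 1.77, 2.14 and 1.08 in shAC007128.1. In shAC007128.1 replicate 3, E2F1 was lowest and RB1 and RBL1 highest among the 3 samples of that group, and both ratios were closest to those of shCtrl.

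Neighbours on the chromosome were counted as past the test in either direction, where 21% of all genes were higher and 19.8% lower. Only protein-coding neighbours were counted. Of the 10829 tested protein-coding genes with a promoter entry, 28.1% were higher and 20.9% lower. Within 1000 kb of E2F8, 12 protein-coding genes were tested, 2 of them higher and 6 lower, with a median log2 fold change of -0.44. Near E2F1, 5 of 19 neighbours were higher and 4 lower (median 0.17), near E2F2, 7 of 23 were higher and 7 lower (median 0.11), and near RB1, 5 of 12 were higher and 1 lower (median 0.40). Near E2F4, 13 of 59 were higher and 15 lower (median 0.02), and near E2F7, 0 of 7 were higher and 2 lower (median 0.02). Near E2F3, 2 of 2 were higher (median 0.98), near E2F5, 3 of 5 were higher and 0 lower (median 0.80), and near E2F6, 3 of 8 were higher and 1 lower (median -0.04). RBL1, on the same chromosome as E2F1, had 9 of 21 neighbours higher and 2 lower (median 0.29).

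Of the DP partners and RBL2, TFDP2 alone passed the test. Of the 3 genes tested in that list 1 was higher and 0 lower, against 21% and 19.8% of all genes. TFDP1, the main DP partner of E2Fs, had 132, 130 and 128 CPM in shCtrl and 146, 144 and 148 CPM in shAC007128.1, a log2 fold change of 0.17 that did not pass the test (edgeR adjusted p = 0.0639). TFDP2, another DP partner, rose from 34.3 ± 2.08 to 49.3 ± 2.5 CPM (SD, n = 3), a log2 fold change of 0.53 (SE 0.09; adjusted p = 0.00294 by edgeR). TFDP3 had 0 counts in all samples. RBL2, which encodes p130, the pocket protein of resting cells, had 187, 191 and 183 CPM in shCtrl and 159, 178 and 194 CPM in shAC007128.1. Its log2 fold change was -0.08 (95% interval -0.28 to 0.12, edgeR adjusted p = 0.494). The ratio of RBL1 to RBL2 per kb was 0.233, 0.238 and 0.234 in shCtrl and 0.318, 0.329 and 0.402 in shAC007128.1. By these counts RBL2 remained the more abundant of the pair throughout. RBL2 shares 609 exonic bases with AKTIP and 721 with another annotated gene, both on the opposite strand, so its count is uncertain.

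The MuvB core joins E2F4 and a pocket protein in the repressive DREAM complex and later binds B-MYB and FOXM1 to activate mitotic genes. Of 9 genes of this list, 7 were higher and 0 lower with edgeR, against 21% and 19.8% of all genes, with a median log2 fold change of 0.92. In this list 0 had an unadjusted p under 0.05 in the lower direction and DESeq2 called 1 lower, rules for which no share of all genes was taken. MYBL2 (B-MYB) rose from 38.5 ± 1.85 to 182 ± 16 CPM (SD, n = 3; log2 fold change 2.24, edgeR adjusted p = 1.6e-05). MYBL1 rose with a log2 fold change of 1.86 and FOXM1 with 1.45 (SEs 0.10 and 0.11). FOXM1 shares 782 exonic bases with ITFG2 on the opposite strand.

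Of 10 genes of the Polycomb complex PRC1.6, in which E2F6 acts, 3 were higher and 1 lower, near the 21% and 19.8% of all genes, with a median of 0.08. CBX3 rose with a log2 fold change of 0.76, YAF2 with 0.69 and WDR5 with 0.44, and RING1 fell with -0.71. CBX3 and WDR5 share 368 and 408 exonic bases with genes on the opposite strand. Among 8 E2F6-repressed germline genes, 4 had 0 counts in all samples and only 3 could be tested. SYCE2, a synaptonemal complex gene, fell with a log2 fold change of -1.43 (SE 0.20; adjusted p = 0.0014 by edgeR), but it shares 352 of its 1475 exonic bases with GCDH on the opposite strand, so its count is uncertain. Of the 3 genes, 0 were higher, against 21% of all genes by edgeR. This held also at an unadjusted p under 0.05 and with DESeq2, for which no share of all genes was taken.

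Among 8 cyclins and kinases that act on the pocket proteins, 4 were higher and 1 lower, against 21% and 19.8% of all genes. CDK6, a partner of D-type cyclins, rose from 171 ± 7.96 to 731 ± 109 CPM (SD, n = 3; log2 fold change 2.1, edgeR adjusted p = 3.32e-05). CCNE2 (cyclin E2) rose with a log2 fold change of 1.77 and CDK2 with 0.60, while CCND2 (cyclin D2) fell with -0.78. CCNE2 shares 1629 of its 4397 exonic bases with INTS8 on the opposite strand, so its count is uncertain. CDK2 shares 565 exonic bases with an lncRNA on the opposite strand, and CCND2 shares 999 with another annotated gene on its own strand. Of 7 inhibitors of these kinases, 6 could be tested, and 2 were higher and 2 lower, against 21% and 19.8% of all genes. CDKN1A (p21) fell from 141 ± 3.69 to 42.9 ± 4.64 CPM (SD, n = 3; log2 fold change -1.72, edgeR adjusted p = 3.83e-05) and CDKN2B (p15) with a log2 fold change of -0.82, while CDKN2C (p18) rose with 1.12 and CDKN2D (p19) with 0.96. CDKN2C shares 617 exonic bases with an lncRNA on the opposite strand.

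**Figure D5:**
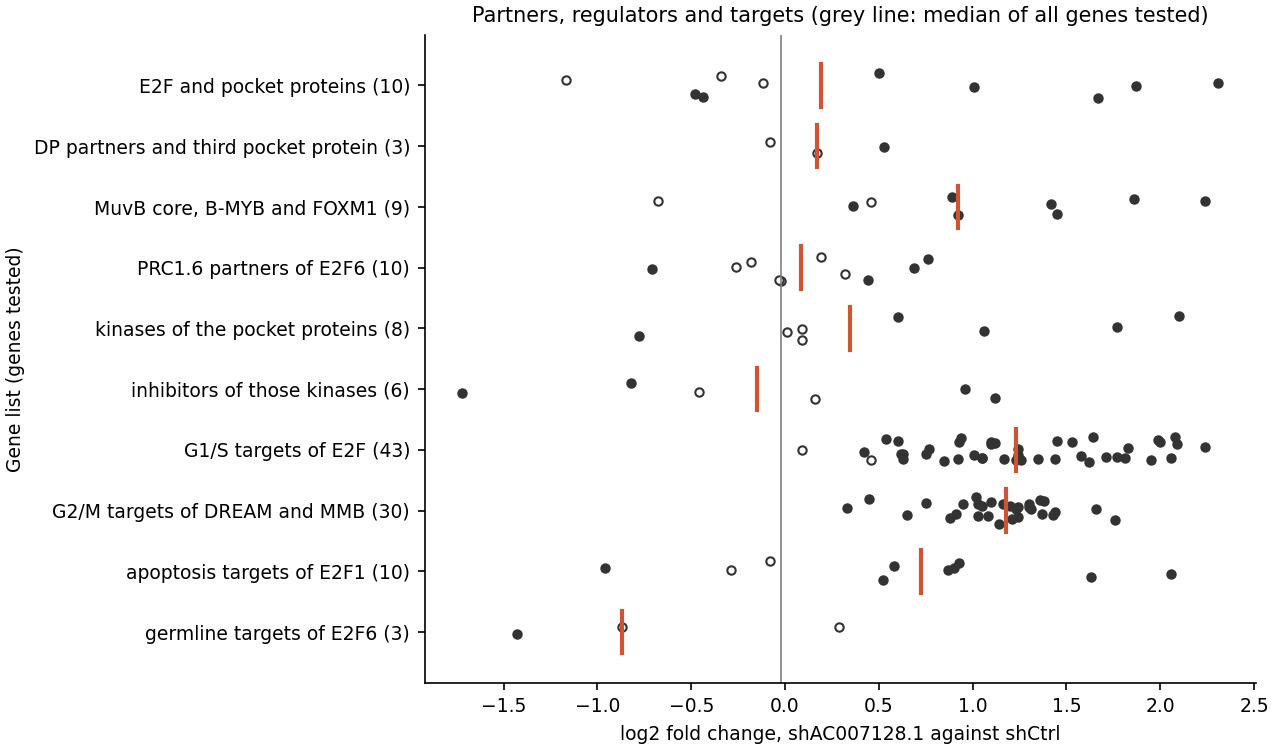
Log2 fold change of each tested gene in the lists of partners, regulators and targets (filled: adjusted p of at most 0.05 from edgeR; open: above; orange bars: list medians; grey line: median of all genes tested, -0.02). The G1/S and G2/M target lists lie wholly to the right of the grey line, and the members themselves spread to either side of it.

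The textbook targets of the factors moved mostly one way, whereas the factors themselves did not. Of 43 G1/S targets of E2F, 41 were higher and 0 lower, against 21% and 19.8% of all genes, with a median log2 fold change of 1.23 and a range of 0.09 to 2.24. None was lower at an unadjusted p under 0.05 or with DESeq2 (0 and 0 genes), for which no share of all genes was taken. MCM6, a subunit of the replicative helicase, rose from 37.1 ± 2.19 to 144 ± 8.1 CPM (SD, n = 3; log2 fold change 1.95, edgeR adjusted p = 1.94e-05), and PCNA, the sliding clamp of DNA polymerase, with a log2 fold change of 1.64. MYBL2 belongs to this list too.

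Of 30 G2/M targets of DREAM and of the MuvB complex with B-MYB, 30 were higher and 0 lower by edgeR, with a median of 1.18. Of all genes, 21% were higher and 19.8% lower by that rule. The list gave the same numbers by an unadjusted p under 0.05 and by DESeq2, for which no share of all genes was taken. CDCA8 (log2 fold change 1.24), KIF20A (1.37) and TOP2A (1.76), genes of chromosome segregation and decatenation, had the smallest p. Of 10 apoptosis genes that E2F1 is known to activate, 7 were higher and 1 lower, against 21% and 19.8% of all genes, with a median of 0.72. APAF1, the apoptosome scaffold, rose from 19.3 ± 2.66 to 80.3 ± 12 CPM (SD, n = 3; log2 fold change 2.06, edgeR adjusted p = 8.28e-05), as did TP73 with a log2 fold change of 0.87, while BBC3 (PUMA) fell with -0.96. APAF1 and TP73 share 750 and 633 exonic bases with genes on the opposite strand. Without shCtrl replicate 2, 3 of these 10 apoptosis genes were higher in place of 7.

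The E2F consensus was found in 21 of the 36 G1/S targets with a promoter entry (58.3%) and the CHR in 18 of the 25 G2/M targets (72%), against 6.44% and 13.9% of the 10829 protein-coding genes tested with an entry. Such motifs are part of how these genes came to be known as targets. Of the 10829 genes, 697 held the E2F consensus. Of these 35.7% were higher and 17.4% lower in shAC007128.1 cells, against 28.1% higher and 20.9% lower of all 10829, with median log2 fold changes of 0.15 and 0.05. For the 1505 genes with the CHR the shares were 35.1% and 16.3%. For the 4645 genes with the CCAAT box they were 31.2% and 19.3%, so the shift was not particular to the E2F consensus and the CHR. The median GC content of the promoters was 64.7% with the E2F consensus, 57.7% with the CHR, 62.3% with the CCAAT box and 64.3% over all. The part of GC content in these shares was not tested.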

How the data were processed

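Poly-A RNA was sequenced in all 6 samples. Before alignment to hg38 with TopHat the authors discarded ribosomal, adapter and poor reads. The submitters' processing notes name TopHat2 2.0.6 and CASAVA 1.8, and the study's methods another TopHat version. Those notes also list the mouse build mm10 beside GRCh38. The deposited table holds raw counts, as whole numbers for each Ensembl identifier. What program counted them, with which annotation release and strand setting, is not given in the sources used here. Low counts pile up at multiples of 4: over the 6 samples a count of 3 occurs 4539 times, 4 occurs 7957 times and 5 occurs 5561 times.

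GENCODE v44 (hg38) gave symbols, positions and exonic lengths and holds 60357 of the 67140 identifiers. After filterByExpr and TMM scaling, groups were compared by the quasi-likelihood test of edgeR 4.0.16 under R 4.3.3, with Benjamini-Hochberg adjustment over all 19254 genes tested. Standard errors are the log2 fold change over the root of F. Members and lists were chosen with earlier results of these data known, and lists were written from textbook knowledge. Named genes are the members, AC007128.1, TFDP1, TFDP2 and RBL2, the 3 genes per direction with the smallest p in each other list, and genes that overlap a member or are its pseudogenes. Alternatives were DESeq2 1.42.0, its size factors in edgeR, no filter, the replicate number as a block, counts divided by 4, each sample left out and another gene length. Thinned libraries were added after seeing the data. A planned comparison of the proteins was not run, and some named genes and markers are not reported here. The steps were tested on simulated counts. Of the sample columns, 0 were left unmapped.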

Additional observations from a re-analysis of the deposited data

How the results depend on the processing

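E2F1, E2F2, E2F4, E2F7, E2F8 and RB1 kept their direction and stayed past the test under all 12 alternatives, with log2 fold changes of 1.79 to 1.98, 1.53 to 1.79, -0.54 to -0.39, -0.58 to -0.43, 2.26 to 2.34 and 0.83 to 1.15. RBL1 missed the threshold under 6 of the 12: with the replicate block (0.48), with no filter (0.46) and in 4 of the 6 fits that leave out a sample (0.30 to 0.63 over all 6). E2F3 passed in 1 fit that leaves out a sample (-0.84 to -0.08 over the 6). E2F5 passed with DESeq2 (-1.20) and in 1 such fit (-1.82 to -0.79 over the 6). E2F6, which did not pass in any setting, was at 0.08 without shAC007128.1 replicate 1 and at -0.26 to 0.08 over the 6. The cause of these changes was not tested.

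Leaving out a sample gave 4 to 5 members higher in place of 5, 3 to 4 higher by 2-fold in place of 4, 2 to 4 members lower in place of 2, and 0 to 1 lower by 2-fold in place of 0, with DESeq2 also at 1. It gave 1 to 2 higher genes in the DP and RBL2 list (main count 1), 0 to 1 lower in the MuvB list (0; 1 with DESeq2), 1 to 2 lower in the PRC1.6 list (1), and 3 to 7 higher and 1 to 2 lower in the apoptosis list (7 and 1). Without shAC007128.1 replicate 2, E2F3 and E2F5 joined the lower members and RBL1 left the higher ones. The cause was not tested. With the replicate block 4 members were higher and 2 lower. Deviations of same-numbered samples correlated at 0.0306, -0.0254 and -0.0299, so no shared deviation by replicate number was seen. Such values cannot tell whether same-numbered samples were handled together. At the adjusted p the block changed no other call among the members, while RB1 lost its 2-fold call. Thinned libraries, counts divided by 4 and DESeq2's size factors changed no call at the adjusted p among the members.

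With the length of the longest transcript, levels in CPM per kb in shCtrl were 7.43 for E2F3, 48.8 for E2F4, 7.75 for E2F6, 33.3 for E2F7, 2.31 for E2F8, 8.61 for RB1 and 5.68 for RBL1, and in shAC007128.1 35.9 for E2F4, 11.4 for E2F8 and 17.3 for RB1. A shorter length raises the level by construction. The 3-count floor covers counting error only, while the 95% intervals come from the spread between the samples.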
